A study of Homo sapiens with 10 samples.

Results

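The genes of cholesterol and fatty acid synthesis were followed in HCT-116 cells, a human colorectal carcinoma line with epithelial features, that had survived doxorubicin (DOX). DOX is an anthracycline that traps topoisomerase II on DNA and breaks it. The set held 30 genes, taken by symbol from the 32738 genes of the deposited count tables. It consisted of 17 enzymes of the sterol arm, 8 enzymes of the fatty acid arm, and 5 genes of regulation and sterol transport. Single-cell RNA sequencing with 10x Genomics 3′ chemistry had been performed on 2 untreated libraries and 2 libraries of cells treated with 200 nM DOX for 24 hours and then left in drug-free medium for 6 days. All 4 libraries came from the same established line, and the only stated difference between the groups was the drug. The labels do not say that the 2 libraries of a condition came from separate cultures, so p-values measure the spread between these libraries, which may be technical.

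Cells make cholesterol from acetyl-CoA through the mevalonate pathway, squalene and a chain of sterol intermediates, and they make fatty acids from the same precursor by carboxylation, elongation and desaturation. Both arms are driven by the SREBP transcription factors, which SREBF1 and SREBF2 encode. When membranes are poor in sterol, SCAP escorts the SREBP precursors from the endoplasmic reticulum to the Golgi, where they are cut into active factors. INSIG1 holds SCAP back when sterol is plentiful, and INSIG1 is itself a target of SREBP. Proliferating cells need both products for new membrane.

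Barcodes were kept where they held at least 20000 UMIs (unique molecular identifiers, each standing for 1 captured transcript) and an MT- share (UMIs of mitochondrially encoded genes) under 8%. This left 3572 and 2137 barcodes in the untreated libraries and 1307 and 1080 in the DOX libraries, with median depths between 72676 and 84829.5 UMIs. Each DOX library listed 8000 barcodes, the number to which the study forced its cell calling. Of these, 5011 and 5448 held under 2000 UMIs and were not among the barcodes kept. The 5 epithelial markers were detected in all 4 libraries at 3541 to 6136 CPM (UMIs per 1000000 UMIs of the library) in sum, while each list of leukocyte, fibroblast or endothelial markers summed to between 0.0854 and 4.55 CPM, with COL1A2 at 0 in every library and CD3E at 0 in 1. No pair of libraries shared more than 2 of the kept barcodes. CDKN1A, a p53 target that encodes the cell cycle inhibitor p21, was 7.95-fold higher in the libraries labelled DOX, and MDM2, another p53 target, 2.34-fold higher.

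In the kept barcodes as a whole, the set did not move in 1 direction after DOX. Of its 30 genes, all of which passed the filter on low counts in every comparison, 8 rose and 6 fell at an adjusted p under 0.05 by edgeR's quasi-likelihood test. The median log2 change of the 30 was 0.06. Over all 21563 genes tested, 28.2% rose, 26.4% fell and the median was 0.04, so the share of members called was close to the background in each direction. Below, levels are CPM after TMM scaling, which sets libraries so that most genes are level, and log2 changes carry their standard error. With 2 libraries against 2, an exact permutation test of a single gene could not go below p = 0.333, so calls rest on the model fitted across all genes.

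The largest rise of the set was that of TM7SF2, a sterol C14 reductase. It stood at 9.70 and 8.15 CPM in the untreated libraries and at 19.7 and 20.1 CPM with DOX, a log2 change of 1.15 ± 0.08 (adjusted p = 1.5e-05, edgeR). HMGCS1, the HMG-CoA synthase that opens the mevalonate pathway, went from 35.4 and 33.1 CPM to 46.2 and 51.0 CPM (log2 change 0.51 ± 0.07, adjusted p = 3.3e-04, edgeR). FDFT1, squalene synthase, which commits farnesyl diphosphate to sterols, went from 71.4 and 62.9 CPM to 95.4 and 98.5 CPM (log2 change 0.53 ± 0.07, adjusted p = 3.6e-04, edgeR). For each of these 3 enzymes both DOX libraries lay above both untreated ones, an order that their call in the same libraries nearly fixes. SQLE, the squalene epoxidase that follows FDFT1, measured 73.5 and 79.8 CPM without the drug and 95.1 and 95.9 CPM with it. HSD17B7, a sterol ketoreductase, measured 10.4 and 8.51 CPM without and 11.8 and 12.3 CPM with DOX. Both rose, by 0.32 ± 0.06 and 0.34 ± 0.09 on the log2 scale.

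The 3 sterol enzymes that fell were EBP, FDPS and PMVK. EBP, the isomerase that moves a double bond in the sterol ring, fell from 86.0 and 71.4 CPM to 46.7 and 52.6 CPM, a log2 change of -0.67 ± 0.09 (adjusted p = 4.3e-04, edgeR). FDPS, farnesyl diphosphate synthase, measured 151.4 and 129.5 CPM without and 109.3 and 121.2 CPM with DOX (log2 change -0.29 ± 0.09). PMVK, phosphomevalonate kinase, changed by -0.22 ± 0.08. The groups of EBP, FDPS and PMVK did not overlap, which their call in the same libraries nearly fixes. FDPS reads can also be drawn by its 8 annotated pseudogenes, those of IDI1 and CYP51A1 by 3 each, those of HSD17B7 by 2, and those of SCD by SCDP1. How the authors' counting split such reads was not tested. The other 9 sterol enzymes, among them MVK, MVD and LSS, were not called, and their log2 changes ran from -0.16 (NSDHL) to 0.15 (LSS).

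In the fatty acid arm, SCD and ACSS2 rose and ACACA fell. SCD, the desaturase that makes oleate, went from 115.3 and 116.4 CPM to 144.2 and 143.1 CPM (log2 change 0.31 ± 0.06, adjusted p = 0.0023, edgeR). ACSS2, which makes acetyl-CoA from acetate, went from 17 and 17.1 CPM to 19.9 and 22.0 CPM (log2 change 0.30 ± 0.07). ACACA, the acetyl-CoA carboxylase that makes malonyl-CoA, went the other way, from 211.3 and 218.9 CPM to 177.2 and 182.4 CPM (log2 change -0.26 ± 0.06, adjusted p = 0.0086, edgeR). The remaining 5 genes of this arm were not called. FASN, the fatty acid synthase, had a log2 change of 0.10 ± 0.07 and ACLY, ATP citrate lyase, of -0.09 ± 0.06.

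Among the regulators, SREBF2, whose product favours sterol genes, rose from 70.0 and 74.6 CPM to 84.6 and 87.7 CPM (log2 change 0.25 ± 0.06, adjusted p = 0.0076, edgeR). SREBF1, whose product favours fatty acid genes, measured 38.9 and 39.3 CPM without and 36.1 and 34.0 CPM with DOX (log2 change -0.16 ± 0.06, adjusted p = 0.044, edgeR), a fall that was gone when libraries were scaled by total UMIs alone (0.01). SCAP, the escort of both factors, went from 32.6 and 33.5 CPM to 27.8 and 28.1 CPM (log2 change -0.24 ± 0.06). INSIG1 measured 22.6 and 20.8 CPM without and 21.4 and 23.8 CPM with DOX, and STARD4, a carrier of free cholesterol, 10.7 and 9.31 CPM without and 10.4 and 11.8 CPM with DOX. The groups of INSIG1 and of STARD4 overlapped, and neither gene was called.

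Which calls held depended on the alternative. When total UMIs were the only scaling, the median log2 change of all genes moved from 0.04 to 0.21, 8472 genes rose and 3263 fell in place of 6077 and 5695, all 8 members that rose were still called, and of the 6 that fell only EBP was. With an MT- share under 20% it was the other way, with 3 of the 8 rises and all 6 falls called, and with every barcode 2 and 6. Without DOX library 1, 6 of the 8 rises (not SCD or SREBF2) and 2 of the 6 falls (EBP and SCAP) were called, without DOX library 2, 6 (not ACSS2 or SREBF2) and 4 (not ACACA or SREBF1), without untreated library 1, 8 and 4 (not PMVK or FDPS), and without untreated library 2, 7 (not HSD17B7) and 5 (not SREBF1).

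**Figure D1:**
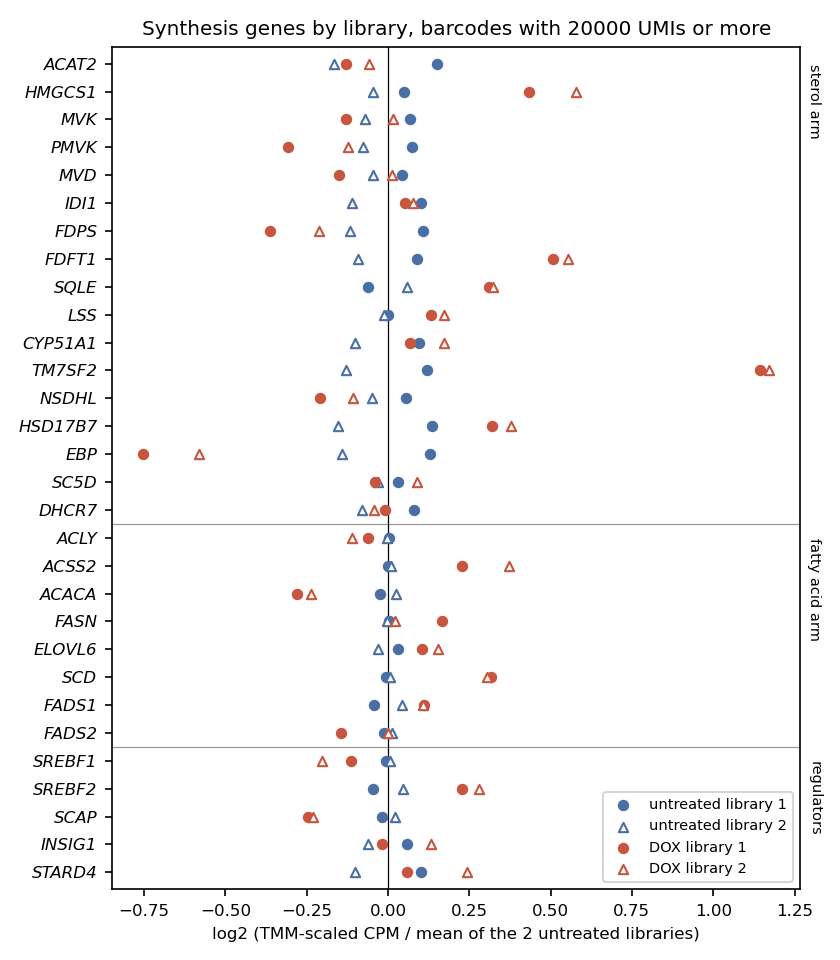
Each row is 1 of the 30 genes and each point 1 library, placed at the log2 ratio of its TMM-scaled CPM to the mean of the 2 untreated libraries (blue untreated, red DOX, filled circles library 1, open triangles library 2). TM7SF2 lies farthest to the right at a log2 change of 1.15 and EBP farthest to the left at -0.67, and the log2 changes of all other genes ran from -0.29 to 0.53.

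Other genes of the same pathways were called in both directions, and the balance depended on the scaling. Of 12 further genes of sterol synthesis and its control, such as MSMO1, LBR and INSIG2, 3 rose and 7 fell (median log2 change -0.20), or 4 and 2 with scaling by total UMIs. Of 20 further genes of fatty acid metabolism, such as ELOVL5, ACSL3 and ME1, 2 rose and 11 fell (median -0.20), or 5 and 8. Of 11 genes of sterol storage and export, 3 rose and 5 fell, or 5 and 1, with a range from -0.38 to 2.65. Of all genes tested 28.2% rose and 26.4% fell, or 8472 and 3263 of 21563 genes with scaling by total UMIs.

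Summed over the arms and taken as parts of all UMIs, both stood higher with DOX. The sterol arm held 662.6 and 634.7 CPM in the untreated and 719.0 and 770.9 CPM in the DOX libraries. The fatty acid arm held 623.0 and 674.7 CPM against 741.5 and 738.4 CPM. The log2 changes, 0.199 and 0.191, exceeded the spread between libraries (0.084 and 0.081). With TMM scaling they were only 0.032 and 0.023, and the spread was not computed on that scale. There the sterol arm held 726.8 and 650.0 CPM without and 682.3 and 724.0 CPM with DOX, which overlap. The fatty acid arm held 683.3 and 691.0 CPM without and 703.6 and 693.4 CPM with DOX. The change of the sterol arm differed from that of the fatty acid arm by 0.009, with a spread of 0.146, so the arms could not be told apart in the kept barcodes as a whole. These sums carry no test.

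With every barcode thinned to 20000 UMIs, the sterol arm ran from 6 UMIs at the 5th percentile to 25 and 23 at the 95th in the untreated libraries, and from 4 to 32.7 and 35 in the DOX libraries, around medians of 12 and 13. The fatty acid arm ran from 5 and 6 to 23 and 24 without and from 5 to 29 and 28 with DOX. The percentiles of the sterol arm in the DOX libraries thus lay outside those of the untreated libraries at both ends, and those of the fatty acid arm at the upper end.

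**Figure D2:**
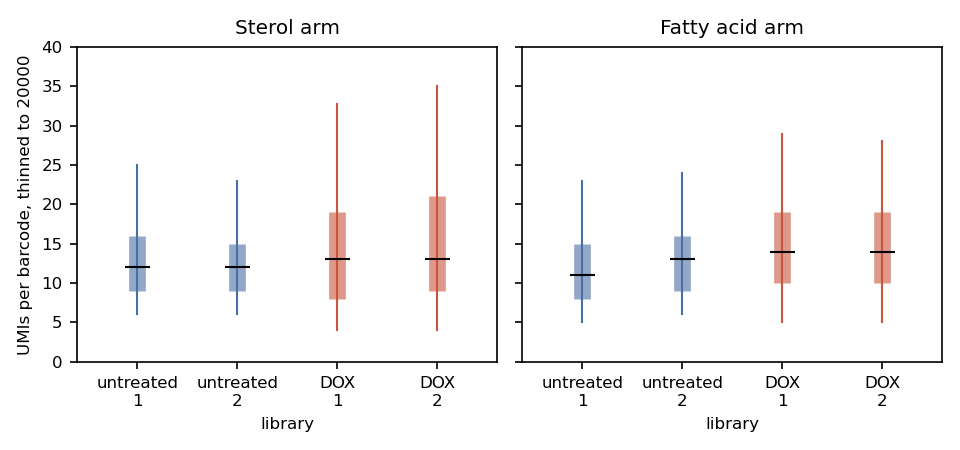
UMIs of the sterol arm (left) and the fatty acid arm (right) per kept barcode after thinning to 20000 UMIs, by library. Thin lines span the 5th to 95th percentile, thick bars the 25th to 75th, and black marks the median. For the sterol arm the lines of the DOX libraries reach from 4 to 32.7 and 35 UMIs, past both ends of the untreated ones.

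The barcodes were next split by the summed UMIs of MKI67 and TOP2A, genes of cycling cells that are not members of the set. Barcodes with at most 3 of these UMIs formed the low class and those with 15 or more the high class. The low class held 113 and 48 barcodes (3.16% and 2.25% of those kept) in the untreated libraries and 413 and 297 (31.6% and 27.5%) in the DOX libraries. The high class held 2685 and 1805 barcodes without and 628 and 564 with DOX. CDKN1A was 7.33-fold higher in the low than in the high class of the untreated libraries and 3.74-fold higher in that of the DOX libraries. The untreated low class was shallower, at median depths of 47160 and 55985 UMIs, than the DOX low class (76430 and 93553) and both high classes (78222.5 to 90268), and the part of depth in the differences below was checked by alternatives only. Its median MT- shares, 5.64% and 5.44%, were above those of the DOX low class (4.96% and 5.01%).

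Within the high class, the set was higher after DOX. Of its 30 genes 18 rose and 1, SCAP, fell, against 16.4% and 15.9% of the 20167 genes tested, and the median log2 change was 0.33 against 0.03 for all genes. The sterol arm accounted for 11 of the rises, the fatty acid arm for 4 and the regulators for 3. The further genes of the same pathways did not share this rise. Of the 12 further sterol genes 3 rose and 3 fell (median -0.12), or 3 and 1 with scaling by total UMIs. That scaling gave 4552 higher and 1782 lower of all 20167 genes tested. Of the 20 further fatty acid genes 3 rose and 7 fell (median -0.07), or 3 and 1. FDFT1 measured 72.5 and 64.0 CPM in untreated and 113.1 and 117.5 CPM in DOX cells (log2 change 0.79 ± 0.07, adjusted p = 6.7e-05, edgeR). HMGCS1 measured 35.6 and 33.4 CPM against 56.9 and 58.4 CPM (0.78 ± 0.06). SQLE measured 75.9 and 82.8 CPM against 121.4 CPM in each DOX library (0.65 ± 0.07). TM7SF2 rose by 0.83 ± 0.09, HSD17B7 by 0.66 ± 0.11 and CYP51A1, the lanosterol demethylase, by 0.51 ± 0.13 on the log2 scale. In each of the rising genes named here the DOX libraries lay above the untreated ones, an order that their call in the same libraries nearly fixes.

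The fatty acid genes that rose in the high class were SCD (0.46 ± 0.06), FADS1 (0.41 ± 0.06), ELOVL6 (0.37 ± 0.06) and ACSS2 (0.37 ± 0.06). FADS1 is a desaturase and ELOVL6 an elongase. SREBF2 rose from 72.0 and 76.8 CPM to 101.8 and 106.2 CPM (log2 change 0.52 ± 0.07, adjusted p = 4.1e-04, edgeR), INSIG1 from 22.3 and 21.1 CPM to 28.8 and 30.4 CPM (0.48 ± 0.07), and STARD4 from 10.8 and 9.49 CPM to 13.1 and 14.6 CPM (0.48 ± 0.09). SREBF1 did not pass the test (-0.06 ± 0.06) and SCAP fell (-0.26 ± 0.06). The call of SCAP was lost without DOX library 1 and under scaling by total UMIs (no member lower in either case). Without DOX library 2, 15 of the 18 rises were called (not MVD, CYP51A1 or SC5D), and without any other library 16 to 18, with MVD lost without DOX library 1 and SC5D without DOX library 1 or untreated library 2. With barcodes of 20000 to 60000 UMIs only, where 171 to 498 untreated barcodes met 26 and 109 DOX barcodes, 8 of the 18 were called and none turned in sign.

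Within the low class, no member was higher after DOX and 9 were lower, against 12.1% higher and 13.9% lower of the 16522 genes tested. No member passed upwards at an unadjusted p under 0.05 either, and DESeq2 also called 0 higher. The median log2 change was -0.28 for the set and 0.05 for all genes, and it was -0.49 for the sterol arm, in which 7 genes fell, and -0.17 for the fatty acid arm, in which 0 of 8 were called in either direction by edgeR or DESeq2 (3 were lower at an unadjusted p under 0.05). Of the 20 further fatty acid genes 2 rose and 8 fell (median -0.31), or 3 and 4 with scaling by total UMIs. That scaling gave 2816 higher and 1657 lower of all 16522 genes tested. Of the 12 further sterol genes 1 rose and 2 fell (median 0.01), or 2 and 1. The deepest fall was that of INSIG1, at 41.4 and 24.2 CPM in the untreated and 9.32 and 12.6 CPM in the DOX low class, a log2 change of -1.63 ± 0.23 (adjusted p = 0.002, edgeR). These levels rested on 244 and 77 UMIs without and 334 and 397 UMIs with DOX.

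EBP measured 50.4 and 36.7 CPM in the untreated low class and 18.8 and 18.9 CPM with DOX (log2 change -1.23 ± 0.14, adjusted p = 8.2e-04, edgeR). FDPS measured 126.5 and 99.8 CPM against 62.8 and 63.1 CPM (-0.85 ± 0.11). STARD4 measured 15.1 and 11 CPM against 6.89 and 7.39 CPM (-0.90 ± 0.19). ACAT2, the cytosolic thiolase that joins acetyl-CoA units for the sterol arm, fell by 0.89, IDI1, the isopentenyl diphosphate isomerase, by 0.79, and MVD, the mevalonate diphosphate decarboxylase, by 0.73 on the log2 scale. HMGCS1 and NSDHL fell by 0.51 and 0.49. For all 9 genes the DOX libraries lay below the untreated ones, an order that their call in the same libraries nearly fixes.

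FDFT1 (-0.04 ± 0.10), SQLE (-0.14 ± 0.09) and SREBF2 (-0.27 ± 0.10) did not pass the test in the low class, nor did SCD (-0.13 ± 0.12). The low class result leaned on the untreated libraries, which held few such barcodes. Without untreated library 1, 5 of the 9 falls were called (not ACAT2, HMGCS1, NSDHL or STARD4), without untreated library 2 all 9 and 14 members in all, without DOX library 1, 7 (not HMGCS1 or NSDHL), and without DOX library 2, 8 (not NSDHL). With barcodes of 20000 to 60000 UMIs only, 3 of the 9 were called, INSIG1, EBP and FDPS, and none of the 9 turned in sign. There SCD was also called lower (-0.79) and SCAP higher (0.87). With the split made after thinning each barcode to 20000 UMIs, 8 of the 9 were called (not HMGCS1), and TM7SF2 was higher (0.62). ACACA (-0.28), PMVK (-0.32) and HSD17B7 (-0.42) were also called lower with that split.

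**Figure D3:**
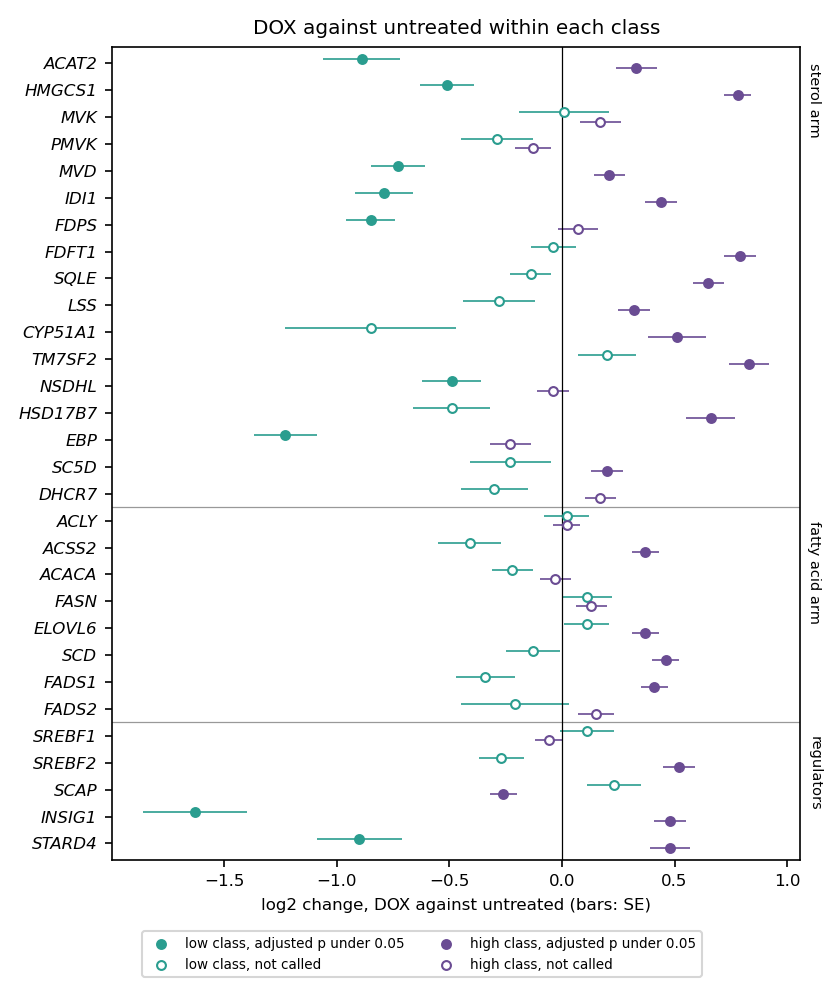
Log2 change of each of the 30 genes between DOX and untreated libraries within the low (green) and the high (purple) MKI67+TOP2A class, with bars for the standard error and filled points for an adjusted p under 0.05. The purple points of the sterol arm lie mostly right of 0, up to 0.83, and the green ones mostly left of it, down to -1.23 in EBP, and the largest gap is that of INSIG1 (-1.63 against 0.48).

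The low and high classes were then compared within each condition, with the library as a block. In the untreated libraries 5 members were higher and 10 lower in the low class, against 7.19% and 21.7% of the 19572 genes tested, with a median of 0.04 (all genes, -0.12). TM7SF2 (1.67 ± 0.13), ACSS2 (0.78 ± 0.12), INSIG1 (0.63 ± 0.16), HMGCS1 (0.50 ± 0.09) and SCD (0.31 ± 0.09) were the higher ones. EBP (-0.88 ± 0.09) and ACAT2 (-0.55 ± 0.11) were lower, as was ACACA (-0.53 ± 0.07). Without untreated library 1, 3 of the 5 and 5 of the 10 were called, and with barcodes of 20000 to 60000 UMIs, 4 of the 5 and 0 of the 10. With scaling by total UMIs the median of all genes moved from -0.12 to -0.0048, the share of calls that were higher moved from 24.9% to 40.1%, and 5 of the 10 lower members were called.

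In the DOX libraries 24 members were lower and 1, TM7SF2, was higher in the low class, against 26.3% and 23.2% of all genes tested, and the median was -0.66 (all genes, 0.04). Of the 17 sterol enzymes 15 were lower, as were 6 of the 8 fatty acid enzymes and 3 of the 5 regulators. Of the 12 further sterol genes 3 were higher and 5 lower (median -0.06), or 4 and 5 with scaling by total UMIs. That scaling gave 5730 higher and 4171 lower of all 19572 genes tested. Of the 20 further fatty acid genes 3 were higher and 12 lower (median -0.28), or 3 and 9. EBP had the largest change, from 63.7 and 70.3 CPM in the high to 18.8 and 18.9 CPM in the low class (log2 change -1.83 ± 0.07, adjusted p = 3.7e-09, edgeR). ACAT2 went from 60.1 and 62.9 CPM to 20.2 and 17.2 CPM (-1.72 ± 0.09). INSIG1 went from 28.8 and 30.4 CPM to 9.32 and 12.6 CPM (-1.44 ± 0.13). FDPS (-1.21 ± 0.06), IDI1 (-1.14 ± 0.07) and SQLE (-1.07 ± 0.07) were also lower in the low class by more than 2-fold.

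The exceptions among the DOX cells were few. TM7SF2 stood at 15.2 and 14.5 CPM in the high and 28.8 and 34.2 CPM in the low class (log2 change 1.08 ± 0.10). The gene begins inside the 3′ end of VPS51 on the same strand (chromosome 11, 64879317 to 64883856, GRCh37), and how 3′ reads of the pair were split was not tested. Other annotated protein-coding genes also overlap EBP, CYP51A1 and FADS2 on the same strand, and the split of their reads was not tested either. FASN, at 173.8 and 164.3 CPM in the high and 191.3 and 157.7 CPM in the low class, was not called (0.04 ± 0.06), and neither were PMVK, ACSS2, SREBF1 and SCAP. The remaining fatty acid enzymes were lower in the low class, from -0.23 (ACLY) to -0.91 (FADS1). With barcodes of 20000 to 60000 UMIs 7 of the 24 were called, and LSS turned to 0.05. Without DOX library 2, 18 of the 24 were called, and without DOX library 1, 20, with LSS, NSDHL and SC5D lost in both cases.

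The change from high to low class itself differed between the conditions for much of the set. It was more negative with DOX for 16 members and more positive for 1, SCAP, at an adjusted p under 0.05 of the interaction term, against 4.38% and 3.36% of the 19572 genes tested. The median difference was -0.66 for the set and 0.07 for all genes, -0.79 for the sterol arm, of which 10 of 17 were called, and -0.28 for the fatty acid arm, of which 3 of 8 were called. INSIG1 had the largest difference, -2.07 ± 0.21 (adjusted p = 1.8e-04, edgeR), since its low class stood above the high class in the untreated libraries (41.4 and 24.2 against 22.3 and 21.1 CPM) and below it with DOX. HMGCS1 had the same turn, at 52.4 and 44.9 CPM in the low and 35.6 and 33.4 CPM in the high class without the drug, and at 32.2 and 36.7 against 56.9 and 58.4 CPM with it (difference -1.25 ± 0.12, adjusted p = 1.3e-04, edgeR). For INSIG1 the untreated gap came mostly from library 1, since library 2 had 24.2 against 21.1 CPM. The untreated log2 change of INSIG1 ran from 0.29 to 0.98 over the alternatives. It was not called with the split after thinning or without untreated library 1.

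Among the members called, STARD4 (-1.33 ± 0.18), IDI1 (-1.18 ± 0.12), ACAT2 (-1.17 ± 0.15) and HSD17B7 (-1.09 ± 0.21) also had differences past -1. CYP51A1, at -1.33 ± 0.41, was not called. SREBF2 stood at 80.4 and 71.6 CPM in the untreated low and 72.0 and 76.8 CPM in the untreated high class, which overlap. With DOX it stood at 66.0 and 59.9 CPM in the low and 101.8 and 106.2 CPM in the high class (difference -0.77 ± 0.12, adjusted p = 0.0022, edgeR). SREBF1 stood between 32.2 and 40.4 CPM in all 8 sums and was not called (0.19 ± 0.12). SCAP, at 25.6 and 28.2 CPM in the untreated low and 34.2 and 34.9 CPM in the untreated high class, stood at 30.5 and 31.8 against 27.9 and 28.4 CPM with DOX (0.52 ± 0.13), and this call was lost in 6 of 11 alternatives, including the removal of untreated library 1 or of either DOX library (0 members higher each).

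The 16 more negative differences kept their sign in every alternative run. Of them 5, ACAT2, HMGCS1, FDPS, SCD and INSIG1, were called with barcodes of 20000 to 60000 UMIs. There the median depths of the untreated low and high classes were closer (40664 and 48445 against 49488.5 and 54049 UMIs), while those of the DOX classes were farther apart (43234.5 and 37432 against 52923 and 53865 UMIs). After thinning 15 of the 16 were called, all but TM7SF2. Without 1 library 14 to 16 were called, with TM7SF2 lost without untreated library 2 or DOX library 1, ACSS2 without DOX library 1, and FADS1 without untreated library 1. Of the other lists, 1 of the 12 further sterol genes was higher and 2 lower in this test, 1 and 2 of the 20 further fatty acid genes, and 0 of the 11 storage and export genes in either direction by edgeR or DESeq2 (1 was higher at an unadjusted p under 0.05), beside 3.36% higher and 4.38% lower of all genes tested.

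**Figure D4:**
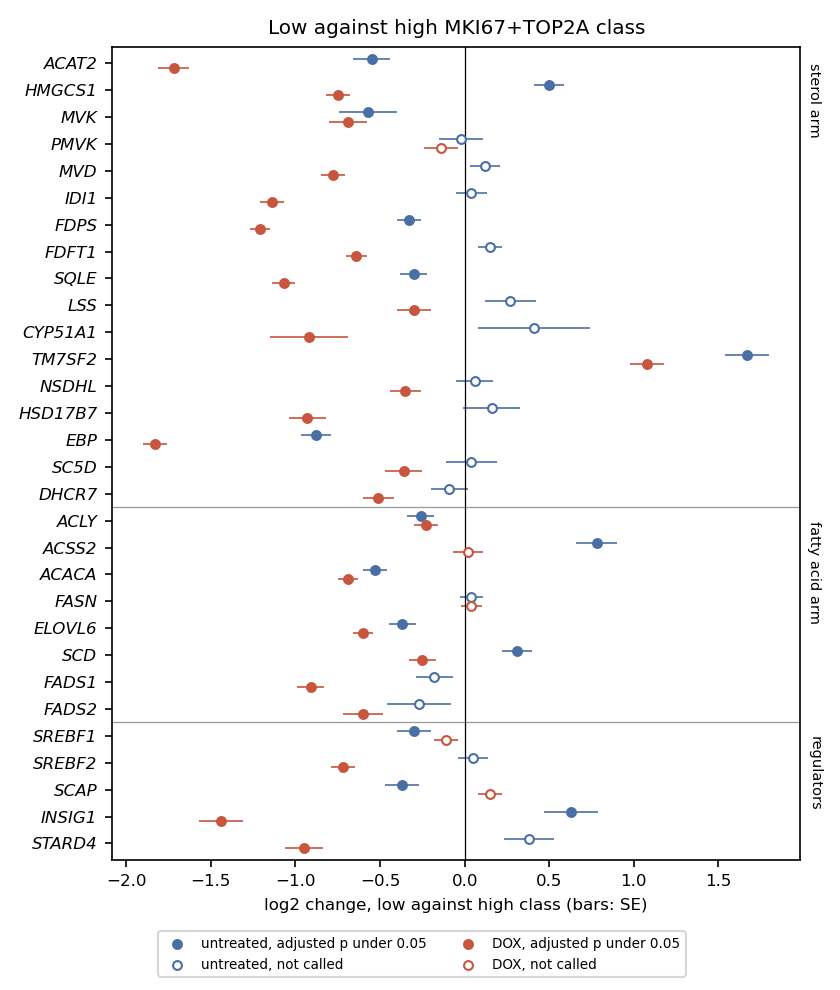
Log2 change from the high to the low MKI67+TOP2A class for each of the 30 genes in the untreated (blue) and the DOX libraries (red), with bars for the standard error and filled points for an adjusted p under 0.05. The red points lie left of the blue ones in most rows, with a difference of -2.07 in INSIG1, and the TM7SF2 row lies right of 0 in both conditions (1.67 and 1.08).

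Arm sums were taken by class as parts of all UMIs. The sterol arm stood at 683.3 and 599.5 CPM in the low and 658.9 and 630.5 CPM in the high class of the untreated libraries, where the classes overlapped. With DOX it stood at 502.4 and 512.7 CPM in the low and 829.3 and 892.0 CPM in the high class. The fatty acid arm stood at 653.7 and 628.9 CPM in the low and 625.2 and 676.8 CPM in the high class without DOX, and at 690.8 and 637.3 against 777.0 and 791.4 CPM with it. In barcodes of 20000 to 60000 UMIs the low classes of the sterol arm overlapped between conditions, at 799.6 and 659.2 CPM without and 664.2 and 654.0 CPM with DOX, and the high classes did not, at 676.6 and 679.5 against 985.2 and 800.8 CPM. The fatty acid arm of DOX library 2 was there at 697.0 CPM in the low and 692.7 CPM in the high class, and that of DOX library 1 at 666.2 and 851.5 CPM. Across barcodes thinned to 20000 UMIs, Spearman's rho of the sterol arm with MKI67+TOP2A was -0.0438 and -0.0644 in the untreated libraries (3572 and 2137 barcodes). It was 0.341 and 0.342 in the DOX libraries (1307 and 1080 barcodes). Pearson's r of the same pair was -0.0156 and -0.0386 without and 0.174 and 0.198 with DOX. For the fatty acid arm rho was 0.0847 and 0.0341 without and 0.141 and 0.135 with DOX. These values describe barcodes that share a library.

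**Figure D5:**
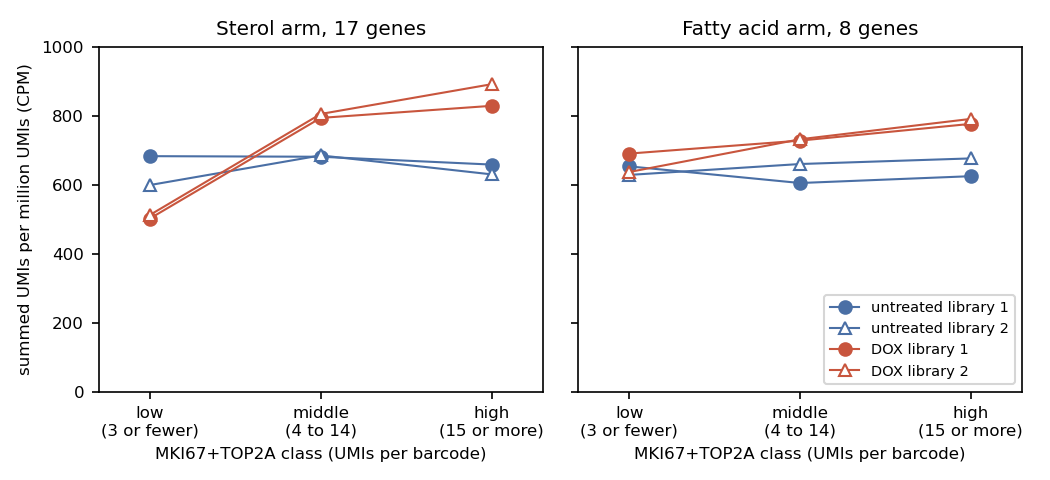
Summed CPM of the sterol arm (left) and the fatty acid arm (right) in the low, middle and high MKI67+TOP2A classes of each library (blue untreated, red DOX, circles library 1, triangles library 2). The sterol lines of the DOX libraries climb from 502.4 and 512.7 to 829.3 and 892.0 CPM, while all untreated sterol values lie between 599.5 and 685.5 CPM.

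Barcodes outside the limits held other proportions. With at least 20000 UMIs and an MT- share of 8% or more, the sterol arm stood at 839.2 and 770.6 CPM in the untreated and 486.4 and 514.2 CPM in the DOX libraries, where 579 and 651 barcodes were of this kind. The fatty acid arm stood at 913.4 and 1018 CPM against 799.7 and 759.3 CPM there. In the barcodes under 2000 UMIs of the DOX libraries the sterol arm stood at 525.7 and 562.3 CPM and the fatty acid arm at 303.6 and 317.8 CPM. When every barcode was counted, 2 members rose and 18 fell after DOX, in place of 8 and 6. Of the 22838 genes tested there, 7970 rose and 7278 fell.

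Because 15 of the 17 sterol enzymes were lower in the low than in the high class of the DOX libraries, the promoters of the set were read from RefSeq (GRCh38.p14, 250 bases before to 50 after the start) for letters bound by factors known at such genes. Of the 30 genes 26 matched, with 36 windows. The CCAAT box, read on both strands and known as a site of NF-Y, a partner of SREBP, was in 24 of the 36 windows (66.7%) and in 34.6% of all 34943 windows. It was in a window of 12 of the 14 sterol genes matched, of 5 of the 7 fatty acid genes and of 3 of the 5 regulators. GGGCGG, the GC box, was in 88.9% of the member windows and 44.9% of all, and CACGTG, an E-box, in 13.9% and 7.23%. TCACNCCAC, a form of the sterol regulatory element, was in 1.12% of all windows and in 1 member window, that of SREBF2. These are matches of letters and not measured sites. The background was all windows and not those of genes expressed here, and some windows of the same member, such as those of HMGCS1, overlap. Whether the letters bear on the difference between classes was not tested.

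Windows of INSIG1 and HMGCS1 are shown because these genes had the largest and a turning difference between conditions, that of EBP because it fell the most from high to low class with DOX, and that of SREBF2 because it encodes the factor itself. Capitals mark CCAAT or its reverse complement and, in SREBF2, the sterol regulatory element. INSIG1 lies at chr7:155297628-155297927 on the plus strand, HMGCS1 at chr5:43313363-43313662 on the minus strand, EBP at chrX:48521558-48521857 and SREBF2 at chr22:41832855-41833154, both on the plus strand.
INSIG1: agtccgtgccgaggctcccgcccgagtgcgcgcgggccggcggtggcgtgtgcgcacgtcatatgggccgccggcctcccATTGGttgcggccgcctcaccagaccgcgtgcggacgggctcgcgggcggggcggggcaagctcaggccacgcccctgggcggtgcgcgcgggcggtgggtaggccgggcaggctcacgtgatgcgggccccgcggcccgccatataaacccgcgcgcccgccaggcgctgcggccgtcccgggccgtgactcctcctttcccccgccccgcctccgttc
HMGCS1: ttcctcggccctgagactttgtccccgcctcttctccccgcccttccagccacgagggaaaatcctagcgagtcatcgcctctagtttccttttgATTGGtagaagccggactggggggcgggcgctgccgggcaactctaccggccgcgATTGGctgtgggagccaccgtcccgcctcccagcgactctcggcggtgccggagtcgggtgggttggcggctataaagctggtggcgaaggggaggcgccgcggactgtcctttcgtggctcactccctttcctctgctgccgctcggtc
EBP: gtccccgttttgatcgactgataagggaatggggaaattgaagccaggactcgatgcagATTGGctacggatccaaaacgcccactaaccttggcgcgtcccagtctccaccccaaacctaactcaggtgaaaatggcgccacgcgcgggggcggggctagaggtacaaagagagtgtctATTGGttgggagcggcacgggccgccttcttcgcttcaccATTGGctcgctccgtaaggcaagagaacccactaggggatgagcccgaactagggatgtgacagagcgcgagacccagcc
SREBF2: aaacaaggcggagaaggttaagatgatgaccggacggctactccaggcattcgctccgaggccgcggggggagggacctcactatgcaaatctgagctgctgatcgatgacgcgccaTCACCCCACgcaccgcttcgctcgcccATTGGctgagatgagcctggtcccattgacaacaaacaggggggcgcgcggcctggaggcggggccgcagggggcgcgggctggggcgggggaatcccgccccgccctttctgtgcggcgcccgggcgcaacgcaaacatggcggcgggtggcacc

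The EBP window holds the CCAAT box 3 times, the HMGCS1 window shown 2 times and the windows of INSIG1 and SREBF2 1 time each. A second HMGCS1 window, at chr5:43313132-43313431, holds it 0 times.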

How the data were processed

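Single-cell RNA-seq of 2 untreated and 2 DOX libraries of HCT-116 cells was used. The authors aligned reads to hg19 with Cell Ranger 7.2.0, forced 8000 cells in each DOX library, and deposited UMI counts per gene and barcode. The counts are raw, with no normalization. Coordinates of genes are GRCh37. The 6 bulk samples were not analysed here. Raw UMIs of the kept barcodes were summed per library, since cells are not replicates, and tested with edgeR 4.0.16 in R 4.3.3 (TMM, filterByExpr, quasi-likelihood test, Benjamini-Hochberg adjustment over all genes tested, threshold 0.05). Comparisons of the low with the high class used 8 sums in 1 fit, with the library as a block. No doublets were called, and the study's upper limits (12000 genes, 150000 UMIs) and removal of the 5% of barcodes with most UMIs were alternatives. Library totals ran from 159897846 to 317489299 UMIs, of which 60.0% to 95.0% lay in the kept barcodes, and a sum per class held at least 3094350 UMIs. The counts of the 2 libraries of a condition differed by more than sampling noise (chi-square per degree of freedom 43.2 untreated and 7.3 DOX). Values per library were given for the 12 members with the smallest adjusted p in the first comparison and for the 5 regulators, and others by range. ACAT2, IDI1, MVD and other members were named for their values in the classes after those were seen. The members and the gene lists were chosen with earlier results of these data known. Alternatives were DESeq2 1.42.0, other scalings, no filter on low counts, other barcode limits, thinning, leaving out each library, and the replicate block. The fits were tested on simulated data.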

Additional observations from a re-analysis of the deposited data

Results flagged for a closer look

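The change from the high to the low MKI67+TOP2A class differed between DOX and untreated libraries for 17 members by the interaction term (edgeR, adjusted p under 0.05, 2 libraries a condition). In the sterol arm the difference in log2 change, DOX minus untreated, was -1.17 for ACAT2, -1.25 for HMGCS1, -0.90 for MVD, -1.18 for IDI1, -0.88 for FDPS, -0.79 for FDFT1, -0.77 for SQLE, -0.59 for TM7SF2, -1.09 for HSD17B7 and -0.94 for EBP. In the fatty acid arm it was -0.75 for ACSS2, -0.56 for SCD and -0.73 for FADS1. Among the regulators it was -0.77 for SREBF2, -2.07 for INSIG1 and -1.33 for STARD4, and 0.52 for SCAP. The untreated low class held 113 and 48 barcodes at median depths of 47160 and 55985 UMIs, against 76430 and 93553 UMIs in the DOX low class. CDKN1A was 2.37-fold higher with DOX within the low class, so the low classes of the conditions also differed in this gene. MKI67 and TOP2A were lower (log2 changes -2.01 and -1.95). Their UMIs define the class, and a fixed limit of 3 UMIs by itself gives lower levels in deeper barcodes, so these 2 changes are partly set by the split. The part of depth and of these differences in the result was not tested beyond the alternatives given.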

How the results depend on the processing

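Counts of members called moved by more than 1.5 times as follows. In the kept barcodes as a whole, scaling by total UMIs gave 15 higher and 1 lower, 20000 to 60000 UMIs 5 and 1, an MT- share under 20% 3 and 16, every barcode 2 and 18, the study's upper limits 3 lower, and thinning 1 lower, in place of 8 and 6. Over all genes these gave, in the same order, 8472 higher and 3263 lower of 21563 tested, 2775 and 2717 of 16005, and 7516 and 6971 of 22539. Every barcode gave 7970 and 7278 of 22838, the upper limits 5407 and 5247 of 20968, and thinning 4498 and 4420 of 17505. SREBF1 turned to 0.01 with total UMIs, SCD to -0.0031 with 20000 to 60000 UMIs, and IDI1 to -0.28, SC5D to -0.17 and INSIG1 to -0.37 with an MT- share under 20%. With every barcode IDI1 turned to -0.32, SQLE to -0.04, SC5D to -0.21, FADS1 to -0.16, INSIG1 to -0.47 and STARD4 to -0.25. In the low class the split after thinning gave 1 higher, and 20000 to 60000 UMIs 1 higher and 4 lower. In the high class 2 were lower with DESeq2, with no filter and with the replicate block, 0 with total UMIs, and 8 were higher and 0 lower with 20000 to 60000 UMIs. From high to low class in untreated libraries, 3 were lower with DESeq2 or the split after thinning, 5 with median-of-ratios or total UMIs, and 0 with 20000 to 60000 UMIs, where ACAT2 turned to 0.27 and FDPS to 0.14. In DOX libraries total UMIs gave 2 higher and 20000 to 60000 UMIs 7 lower, where LSS turned to 0.05. For the difference, DESeq2, median-of-ratios and no filter gave 0 higher, and 20000 to 60000 UMIs 5 lower. With 20000 to 60000 UMIs, 893 of all genes were higher and 1137 lower of 12567 tested in the low class, and 465 and 393 of 13568 in the high class. From high to low class it was 360 and 371 of 13699 in untreated libraries, 1427 and 1589 in DOX libraries, and 58 and 146 for the difference. The arm sums moved to 0.037 (sterol, MT- share under 20%), -0.001 (sterol, every barcode), and 0.032 and 0.023 (sterol and fatty acid, TMM). Leaving out 1 library at a time gave 2 to 7 lower in the kept barcodes, 5 to 14 lower in the low class, 0 to 3 lower in the high class, 3 to 5 higher and 5 to 10 lower between untreated classes, and 0 to 1 higher for the difference. The cause was not tested, except that narrower limits leave fewer barcodes.

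Deviations of same-numbered libraries from their group means correlated at r = 0.00662 over 21563 genes, so the numbers are not read as pairs. A replicate block gave 8 higher and 7 lower members in the kept barcodes, and 10 lower in the low class. Without the block on library, 8 were lower between untreated classes, 23 between DOX classes and 15 for the difference. Of single members' values under all alternatives, 451 of 540 in the kept barcodes and 290 of 330 for the difference kept their call and direction, or stayed uncalled.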
